A study of Mus musculus with 24 samples.

Results

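The genes described here are potassium channel genes by name: the 84 genes on the array whose platform symbol starts with Kcn, out of 18193 genes named by the platform. Among them are 15 auxiliary subunits and 3 RNAs that are not channel subunits. The 84 genes were measured by 167 probe sets, and the brightest of these stood for each gene. The question was which of them varied over the circadian day in the adrenal gland. Of the 84 genes, 55 had a mean signal above 184, the 40th percentile of all probe sets, and were tested; the other 29 were too dim to judge. Among 13879 tested genes of the whole array, 12.8% passed the test for a 24 h rhythm, and among the tested potassium channel genes 7 of 55 (12.7%) did, so the share was close to the background. The members that passed were Kcnk1, Kcnh2, Kcnq1, Kcnn2, Kcnj8, Kcnf1 and Kcna7. Of the leak channels known from the adrenal, Kcnk1 passed, Kcnk2 and Kcnk3 did not, and Kcnk9 was not analysed here.

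Every sample was a whole adrenal gland preparation from adult male C57B/6J mice, wild type and 3 months old. The animals were entrained for 2 weeks to 12 h of light and 12 h of darkness, then released into constant darkness, and killed in the dark. There were 12 time points at intervals of 4 h, the first 38 h and the last 82 h after the lights went off, and each had 2 arrays. Subtracting 12 h from the time after lights off gives 6 projected circadian times, 2, 6, 10, 14, 18 and 22, sampled in 2 cycles in a row, with circadian time 0 at projected lights on. Whether arrays stand for separate or pooled animals is not in the labels, so the p-values cover only the spread among these samples, which may be technical.

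Of the 24 arrays, 6 pairs held signals that differed by far less than those of other arrays. Each such pair entered as 1 profile, giving 18 profiles, 3 per circadian time. The profiles formed 2 array sets by the signal of the ThrX-3 control: it lay between 513 and 1858 in the second set, against 56.4 to 101 in the first. The second array set held the 6 profiles of circadian times 10 and 18 and no others, and the first held the other 12 profiles. For members described at length the rhythm is therefore given without a term for the array set. For most of them it is also given with the set as a block and from the first set alone. One profile of circadian time 18, 78 h replicate 2, had a ratio of 5' to 3' Gapdh signal of 0.0386, against 0.846 to 1.13 in the others. Markers of skeletal muscle and of liver were also uneven: the summed signal of the muscle list lay between 845 and 18818 in the second set against 908 and 1228 in the first, and that of the liver list between 1657 and 12860 against 975 and 2398. Genes that mark the gland itself were bright, with 8 of 8 steroid cell markers and 12 of 13 chromaffin cell markers tested.

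Potassium channels let potassium leave the cell and hold the membrane potential negative. In the adrenal cortex, background (leak) channels of the two-pore family keep steroid cells hyperpolarised; when angiotensin II closes such channels the cell depolarises, calcium channels open and aldosterone synthesis is stimulated. In chromaffin cells of the medulla, calcium-activated and voltage-gated channels shape the action potentials that release catecholamines. ATP-sensitive inward rectifiers couple the membrane potential to the metabolic state of the cell, also in vascular smooth muscle and pericytes. Since whole glands were measured, fewer cells of a type and less RNA per cell cannot be told apart in any of the values below.

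Kcnk1 (probe set 1448690_at) encodes TWIK-1, a two-pore channel with weak background currents, and was the leak channel gene that passed the 24 h test. Its signal was 1456, 1454 and 1551 at circadian time 2, 1407, 1517 and 1880 at 6, 2357, 2343 and 2146 at 10, 1053, 1339 and 1096 at 14, 1375, 1529 and 967 at 18, and 516, 1198 and 806 at 22. The 3 profiles of circadian time 10 were above the 15 others, and the lowest value of all was at circadian time 22, where the 3 profiles spread most. The amplitude, meaning the distance from the mean to the peak of a fitted 24 h cosine, was 0.52 ± 0.12 log2 units (SE, n = 18 profiles). The fitted peak lay at 8.6, and the peak-to-trough ratio was 2.05. This passed the limma F test (adjusted p = 0.0201 over 13879 genes), as it did with the array set as a block (0.52 log2 units, peak 7.2, adjusted p = 0.00218) and in the first set alone (0.56 log2 units, adjusted p = 0.0392). The call was lost without 46 h replicate 1 or 46 h replicate 2, both of circadian time 10 (highest adjusted p = 0.0511), and without the 4 profiles with an Acta1 signal over 1000 (0.50 log2 units, adjusted p = 0.119), but in none of the 18 fits that left out 1 profile and kept the array set as a block.

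A second probe set of Kcnk1, 1455896_a_at, gave a like pattern. At circadian time 10 it read 897, 953 and 1009, and at circadian time 22 it read 359, 454 and 606. Its amplitude was 0.41 log2 units with a peak at 7.9 (limma adjusted p = 0.00658 over 27021 probe sets), and 0.43 log2 units with the array set as a block (adjusted p = 0.000906). Both probe sets therefore passed in both fits.

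The promoter of Kcnk1 is shown as that of the leak channel gene that passed. That of Kcnf1 is shown because it alone held a circadian motif among the promoters reported in this paragraph for single genes. The pair was thus chosen after the motifs were seen, and a link between motifs and time of peak was not tested. Sequences are RefSeq promoters on GRCm38.p6, from 250 bases before to 50 bases after the listed start, and 64 of the 84 genes had one. On both strands the E-box CACGTG, the related CACGTT, the D-box TTATGNAA and the half-site AGGTCA, to which the ROR and REV-ERB receptors bind, were searched. The Kcnk1 promoter, on the plus strand at chr8:125994852-125995151, held none of them. The Kcnf1 promoter, on the minus strand at chr12:17176839-17177138, held 2 half-sites, given in capitals, starting 127 bases (reverse strand) and 74 bases (forward strand) before the start.
Kcnk1: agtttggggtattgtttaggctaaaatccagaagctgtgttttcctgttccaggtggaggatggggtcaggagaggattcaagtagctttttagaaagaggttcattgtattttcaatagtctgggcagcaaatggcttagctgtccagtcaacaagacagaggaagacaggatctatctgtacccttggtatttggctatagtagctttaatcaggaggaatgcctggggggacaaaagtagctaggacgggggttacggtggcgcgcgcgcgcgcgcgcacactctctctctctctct
Kcnf1: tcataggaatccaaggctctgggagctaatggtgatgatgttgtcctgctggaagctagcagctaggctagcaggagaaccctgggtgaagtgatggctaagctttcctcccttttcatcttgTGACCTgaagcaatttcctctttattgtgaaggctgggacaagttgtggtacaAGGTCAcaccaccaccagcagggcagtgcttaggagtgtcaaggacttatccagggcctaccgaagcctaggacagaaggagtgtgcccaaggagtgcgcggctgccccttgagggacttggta
Of all 32851 promoters in the table, 16.3% held AGGTCA, 7.15% CACGTG, 4.68% CACGTT and 3.38% TTATGNAA. Among the 89 promoters of potassium channel genes, 5 held AGGTCA, 6 held CACGTG, 3 held CACGTT and 0 held TTATGNAA. Of the other rhythmic members, Kcnh2, Kcnj8 and Kcna7 had a listed promoter with no match to the letters searched. The promoters listed for Kcnk2 held no match either. The promoter of Kcnn2 is not reported here, and Kcnq1 had none listed.

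Kcnk2 (1449158_at) encodes TREK-1, a leak channel opened by stretch and lipids that sets the resting potential of cortisol-producing cells in the cow. Its signal was 1217, 1298 and 1332 at circadian time 2, 1451, 1435 and 1151 at 6, 1384, 1400 and 1321 at 10, 1199, 1332 and 1156 at 14, 968, 1395 and 1209 at 18, and 1147, 1227 and 1480 at 22. The ranges of the 6 circadian times all overlapped. Its fitted amplitude was 0.09 ± 0.05 log2 units (SE, n = 18 profiles) and did not pass (adjusted p = 0.39 in the limma F test, 0.42 with the array set as a block and 0.754 in the first set alone). Circadian time 18 was 0.21 ± 0.14 log2 units below circadian time 10 (SE, n = 3 profiles each), which limma did not call either (adjusted p = 0.425).

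Kcnk3 (1425341_at) encodes TASK-1, an acid-sensitive leak channel whose loss in mice disturbs aldosterone production and the zonation of the cortex. It had signals of 6882, 6818 and 7031 at circadian time 2, 8595, 8893 and 7556 at 6, 6300, 6645 and 7088 at 10, 8434, 8309 and 7926 at 14, 6970, 6917 and 6668 at 18, and 7882, 7380 and 7685 at 22. All 9 profiles of circadian times 6, 14 and 22 were above all 9 profiles of 2, 10 and 18, so the levels did not follow a single daily cosine. The fitted 24 h amplitude was 0.02 ± 0.05 log2 units (SE, n = 18 profiles; adjusted p = 0.913 in the limma F test), 0.10 with the array set as a block (adjusted p = 0.15) and 0.12 in the first set alone (adjusted p = 0.125). The 6 circadian times did differ (limma F test, adjusted p = 0.000336), and so did the 4 circadian times of the first set (adjusted p = 0.0206). Beside the fitted rhythm the second array set was 0.27 log2 units below the first (adjusted p = 0.000581), so for circadian times 10 and 18 the level and the array set cannot be told apart. Between circadian times 18 and 10 the difference was 0.04 ± 0.07 log2 units (SE, n = 3 profiles each; adjusted p = 0.793).

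The other 2 tested probe sets of Kcnk3 did not pass the 24 h test either. Probe set 1426058_a_at read 3383 to 3694 at circadian time 6 and 3316 to 3646 at 14, and between 2549 and 3328 at each of the other 4 times. Its amplitude was 0.07 log2 units (limma adjusted p = 0.547 over all probe sets). Probe set 1425342_a_at was listed at 0 in 78 h replicate 2, the profile with the low Gapdh ratio, against 779 and 1662 in the other profiles of circadian time 18. Its fitted amplitude of 0.65 log2 units (adjusted p = 0.413) includes that value.

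**Figure D1:**
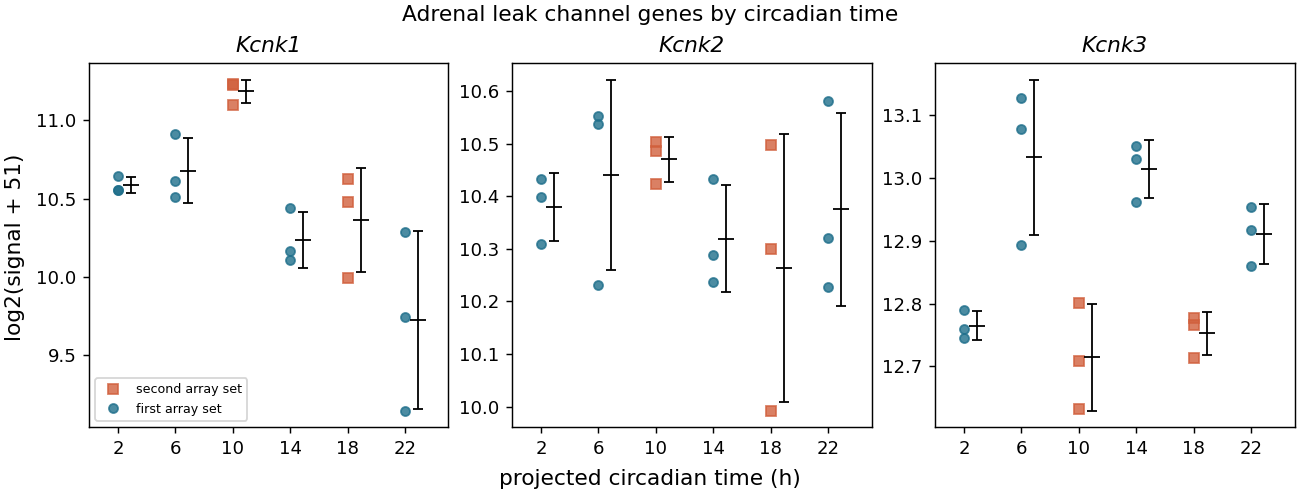
Signals of Kcnk1, Kcnk2 and Kcnk3 on the log2(signal + 51) scale against projected circadian time in hours, with 3 profiles per time as points (squares, second array set; circles, first array set) and their mean ± SD beside them. The 3 profiles of Kcnk1 at circadian time 10 lie above the other 15, Kcnk2 shows overlapping values across the day, and Kcnk3 is higher at 6, 14 and 22 than at 2, 10 and 18.

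None of the remaining 7 tested two-pore genes passed the 24 h test, against a share of 12.8% over all genes. Kcnk4, Kcnk5, Kcnk6, Kcnk7, Kcnk10, Kcnk13 and Kcnk16 had amplitudes between 0.00 and 0.12 log2 units, and with the array set as a block none passed either. Kcnk13, which encodes THIK-1, differed among the 6 circadian times (limma adjusted p = 0.0319), with the second array set 0.30 log2 units below the first, but not among the 4 times of the first set (adjusted p = 0.169). Kcnk12 and Kcnk15 were too dim to judge, at mean signals of 71.5 and 47.8.

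Voltage-gated channels held the rhythmic member with the largest amplitude and the one with the lowest p. Of 22 genes in this class 15 were tested and 3 passed, namely Kcnq1, Kcnh2 and Kcna7, against a share of 12.8% over all genes. Kcnq1 (1449464_at) encodes KvLQT1, a slowly activating channel that pairs with Kcne subunits and is best known from heart and epithelia. Its signals were 316, 279 and 274 at circadian time 2, 318, 377 and 424 at 6, 651, 732 and 626 at 10, 369, 533 and 504 at 14, 600, 470 and 463 at 18, and 114, 181 and 262 at 22. The 3 profiles of circadian time 10 exceeded all others, and the 3 of circadian time 22 were the lowest, of which 2 lay below the signal of 184 used as the filter. The amplitude was 0.65 ± 0.11 log2 units with a peak at 11.8 and a peak-to-trough ratio of 2.46 (SE, n = 18 profiles; limma adjusted p = 0.00356). The second array set was 0.54 log2 units above the first beside that rhythm, and with the set as a block the amplitude was 0.51 ± 0.09 log2 units (adjusted p = 0.003). The first set alone gave 0.62 log2 units (adjusted p = 0.01).

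Kcnh2 (1449544_a_at) encodes ERG1, a channel that repolarises the membrane after an action potential. It read 966, 806 and 977 at circadian time 2, 855, 922 and 1000 at 6, 969, 893 and 910 at 10, 649, 671 and 599 at 14, 658, 665 and 391 at 18, and 592, 775 and 636 at 22. All 9 profiles of circadian times 2, 6 and 10 were above all 9 of circadian times 14, 18 and 22, so these times of day did not overlap. The amplitude was 0.38 ± 0.06 log2 units with a peak at 5.9 and a ratio of 1.7 (SE, n = 18 profiles; limma adjusted p = 0.00204). It was 0.39 log2 units with the array set as a block (adjusted p = 0.00116) and 0.34 in the first set alone (adjusted p = 0.00465). The lowest value, 391, came from 78 h replicate 2.

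Kcna7 (1450490_at), which encodes the channel Kv1.7, was dim and its call was weak. Its signals were 151, 204 and 196 at circadian time 2, 230, 173 and 159 at 6, 199, 220.5 and 246 at 10, 249, 205 and 238 at 14, 339, 246 and 305 at 18, and 174, 193 and 186 at 22. The amplitude of 0.24 ± 0.06 log2 units, with a peak at 15.6, passed without a term for the array set (SE, n = 18 profiles; limma adjusted p = 0.0421) but not with it (0.17 log2 units, adjusted p = 0.115) or in the first set alone (0.14, adjusted p = 0.207). Of the 18 fits that left out 1 profile, 5 kept the call.

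Kcnd1 (1421538_at), which encodes the A-type channel Kv4.1, passed with the array set as a block but not without. Its amplitude was 0.13 log2 units there, with a peak at 19.8 (limma adjusted p = 0.0349), against 0.14 ± 0.04 log2 units without the term (adjusted p = 0.0769) and 0.09 in the first set alone (adjusted p = 0.391). The 3 signals of circadian time 10, from 396 to 467, were below those of the other 5 times, from 471 to 638. Of 18 blocked fits without 1 profile 10 kept the call, and of 18 without the block 1 made it, that without 42 h replicate 1 (adjusted p = 0.0476).

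Kcnh3 and Kcnc1 did not pass the 24 h test but differed between the array sets. Kcnh3, which encodes the Elk channel Kv12.2, read 826, 881 and 1314 at circadian time 18 and 735, 585 and 696 at 10, and between 1139 and 1392 in the 12 profiles of the first set. The test of any difference among the 6 times called it (limma adjusted p = 6.09e-05), but that among the 4 times of the first set did not (adjusted p = 0.513), and its 24 h amplitude of 0.25 ± 0.11 log2 units did not pass (adjusted p = 0.243). Kcnc1, which encodes the fast channel Kv3.1, likewise was 0.32 log2 units lower in the second set (adjusted p = 0.00104) and had an amplitude of 0.10 log2 units (adjusted p = 0.43). These values are of the brightest probe sets, with fitted peaks at 23.7 for Kcnh3 and 0.75 for Kcnc1. Other tested probe sets peaked elsewhere, at 10.4 and 11.9 for Kcnh3 (mean signals 958 and 920) and at 18.6 and 8.0 for Kcnc1 (270 and 256). None of them passed, and their difference between array sets is not given here.

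Among the modifier subunits, which form no channels of their own but alter Kv2 channels, 5 of 9 were tested. Of these 1 passed, against a share of 12.8% over all genes. Kcnf1 (1441300_at), which encodes Kv5.1, had signals of 824, 699 and 729 at circadian time 2, 498, 517 and 544 at 6, 477, 553 and 562 at 10, 1045, 930.03 and 1090.0 at 14, 848, 924 and 652 at 18, and 713, 703 and 794 at 22. The 6 profiles of circadian times 6 and 10 were below the 12 others, and the 3 of circadian time 14 were the highest. The fitted peak of Kcnf1 lay at 18.1, with an amplitude of 0.34 ± 0.08 log2 units (SE, n = 18 profiles; limma adjusted p = 0.0285). The second array set was 0.38 log2 units below the first, and with the set as a block the amplitude was 0.41 ± 0.07 log2 units with a peak at 17.0 (adjusted p = 0.0013). Kcnf1 also passed in the first set alone. Of the 18 fits without 1 profile, 13 kept the call without the block (highest adjusted p = 0.0647) and 18 with it. Losses came without any 1 of the 3 profiles of circadian time 6, without 46 h replicate 2 and without 54 h replicate 2. Kcns3 and Kcns1, modifiers of the same kind, had amplitudes of 0.06 and 0.14 log2 units and did not pass (adjusted p = 0.713 and 0.239).

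Calcium-activated channels and their Slo relatives gave 1 rhythmic gene of 5 tested and 8 in all, against a share of 12.8% over all genes. Kcnn2 (1448927_at) encodes SK2, a small-conductance channel opened by calcium that produces the afterhyperpolarisation of excitable cells, chromaffin cells among them. It read 1257, 1431 and 1254 at circadian time 2, 1623, 1594 and 1491 at 6, 2296, 2451 and 2155 at 10, 1872, 2176 and 1816 at 14, 1073, 1615 and 1241 at 18, and 1521, 1542 and 1292 at 22. The 6 profiles of circadian times 10 and 14 were above the 12 others. The amplitude was 0.36 ± 0.07 log2 units with a peak at 10.9 and a ratio of 1.65 (SE, n = 18 profiles; limma adjusted p = 0.00521). It hardly changed with the array set as a block (0.37 log2 units, adjusted p = 0.004), and in the first set alone it was 0.27 log2 units (adjusted p = 0.00364).

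Kcnma1, which encodes the large-conductance BK channel of chromaffin cells, gave different answers by probe set. The brightest, 1428948_at, read between 1487 and 2070.0 over all profiles, with an amplitude of 0.10 ± 0.04 log2 units that did not pass (SE, n = 18 profiles; limma adjusted p = 0.254). The dimmest tested one, 1424848_at, read 341, 429 and 505 at circadian time 10, against 68.0 to 304 at the other 5 times, and passed with an amplitude of 0.56 log2 units and a peak at 10.5 (adjusted p = 0.0355 over all probe sets). A further probe set, 1425987_a_at, had 0.21 log2 units and passed with the array set as a block alone (adjusted p = 0.0272). Kcnn4, which encodes the intermediate-conductance channel of blood and epithelial cells, had an amplitude of 0.04 log2 units (adjusted p = 0.698).

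Inward rectifiers gave 1 rhythmic gene of 10 tested and 15 in all, against a share of 12.8% over all genes. Kcnj8 (1418142_at) encodes Kir6.1, the pore of ATP-sensitive channels in vascular smooth muscle and pericytes. Its signals were 750.1, 796 and 807 at circadian time 2, 1075, 915 and 926 at 6, 816, 681 and 808 at 10, 705, 627 and 708 at 14, 572, 580.2 and 822 at 18, and 582, 738 and 753 at 22. The 3 profiles of circadian time 6 were above the 15 others, those of circadian time 2 were above those of 14, and the other pairs among these 5 times overlapped. The amplitude was 0.24 ± 0.05 log2 units with a peak at 5.8 (SE, n = 18 profiles; limma adjusted p = 0.0194), 0.23 with the array set as a block (adjusted p = 0.0178) and 0.30 in the first set alone (adjusted p = 0.0114). Without 42 h replicate 1, the highest profile, the adjusted p was 0.0505.

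Kcnj11, the pore of the ATP-sensitive channel of endocrine cells and muscle, had signals of 2386 to 2707 at circadian time 18 and 1900 to 2352 at 10, against 2547 to 2930 in the 12 profiles of the first set. Its amplitude of 0.11 ± 0.05 log2 units did not pass (SE, n = 18 profiles; limma adjusted p = 0.27), while the second set was 0.27 log2 units lower beside the rhythm (adjusted p = 0.00144). Kcnj6, a G-protein-gated rectifier, had an amplitude of 0.12 log2 units (adjusted p = 0.23). Kcnj5, whose human counterpart is mutated in aldosterone-producing adenomas, was too dim to judge, with signals from 87.5 to 138 and no profile over the filter.

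None of the 8 tested auxiliary subunits, of 15 in all, passed the 24 h test over all profiles, against a share of 12.8% over all genes. Kcnmb4, the BK channel subunit best known from neurons, came nearest, with 0.18 ± 0.05 log2 units and a peak at 3.7 (SE, n = 18 profiles; limma adjusted p = 0.0658), 0.16 with the array set as a block (adjusted p = 0.122) and 0.26 in the first set alone, where it passed (adjusted p = 0.00319). In the first set its 3 signals at circadian time 6, from 654 to 712, lay above the 545 reached at most at circadian times 14 and 22. Those at circadian time 2 were 583, 583 and 689, so they overlapped those at 6. The Kv4-binding calcium sensors Kcnip1 and Kcnip3 had amplitudes of 0.12 and 0.08 log2 units (adjusted p = 0.212 and 0.358). Of the 3 genes with Kcn symbols that are not channel subunits, Kcnq1ot1, the RNA antisense to Kcnq1 that acts in imprinting, and Kcnmb4os2 were tested, and neither passed (0.01 and 0.09 log2 units, adjusted p = 0.982 and 0.384).

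**Figure D2:**
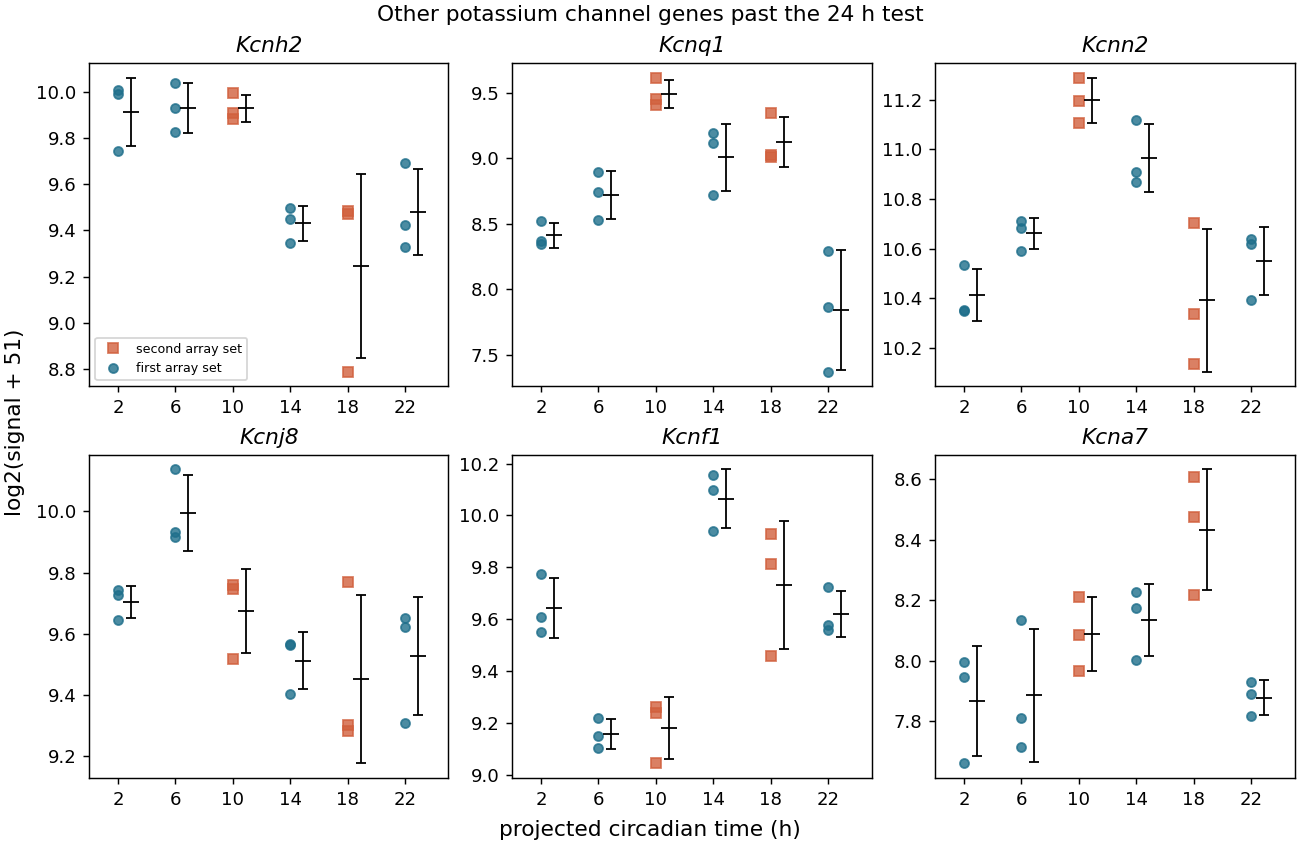
Signals of the 6 other members that passed the 24 h test, on the log2(signal + 51) scale against projected circadian time in hours, with 3 profiles per time (squares, second array set; circles, first array set) and mean ± SD. Kcnh2 is high at 2 to 10 and low at 14 to 22, Kcnq1 and Kcnn2 are highest at 10, Kcnj8 at 6, Kcnf1 at 14 and Kcna7 at 18.

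The fitted peaks of the 7 rhythmic members among the 55 tested genes are given here by time of day. The share of all rhythmic genes that peaked at these times was not computed, so the times are no trait of the family. Those of 5 lay between circadian times 5 and 12 (Kcnj8, Kcnh2, Kcnk1, Kcnn2 and Kcnq1), in the projected light phase. Those of Kcna7 and Kcnf1 lay between 15 and 19, in the projected dark phase. Of these later members, Kcna7 did not pass with the array set as a block or in the first set alone. The median amplitude was 0.36 log2 units for the 7 members called, and 0.11 for all 55, against 0.11 for all 13879 genes. A peak-to-trough ratio of at least 1.5 was fitted for 5 of the 55 and for 1234 of all genes. Without adjustment, 12 of the 55 and 4287 of all genes had p under 0.05.

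With the array set as a block, 7 of 55 passed against 17.8% of all genes, and in the first set alone 7 of 55 passed against 12.3%. The same 6 members, Kcnk1, Kcnh2, Kcnq1, Kcnn2, Kcnj8 and Kcnf1, passed in all 3 fits, against 6.90% of all genes. Kcna7 was the further call without the block, Kcnd1 the one with it and Kcnmb4 the one in the first set. Leaving out 46 h replicate 2 lowered the count without the block to 4, and that over all genes from 1781 to 1217. Among the 19 genes with more than 1 tested probe set, 25 of 26 other probe sets gave the call of the brightest one without the block, and the exception was 1424848_at of Kcnma1. With the block, 4 differed from the brightest: both other probe sets of Kcnma1 and 1435957_at of Kcnq3 passed where it did not (adjusted p = 0.049 for Kcnq3), and 1455514_at of Kcnd1 did not pass where it did (adjusted p = 0.892).

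**Figure D3:**
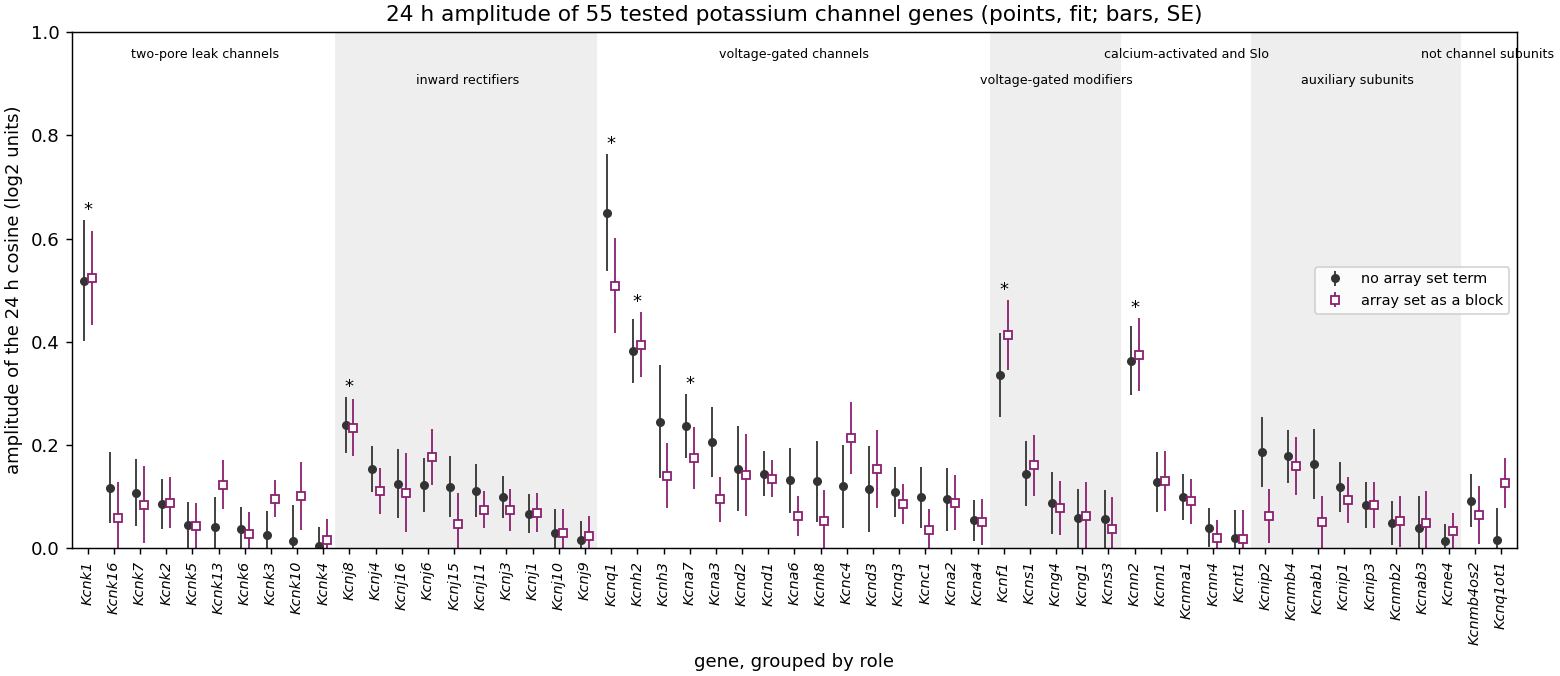
Amplitude of the 24 h cosine in log2 units for the 55 tested genes, grouped by role, without a term for the array set (filled circles) and with it as a block (open squares), with bars of 1 SE. Asterisks mark the 7 genes past the threshold without the term, from 0.24 for Kcna7 and Kcnj8 to 0.65 for Kcnq1, and most other genes lie under 0.20.

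Circadian times 18 and 10 lie in the same array set and can be compared without it. Of the 55 genes 2 differed, Kcnk1 and Kcnn2, both lower at 18, against 6.00% of all genes (2.43% lower and 3.57% higher at 18). Kcnk1 had signals of 1375, 1529 and 967 at circadian time 18 and 2357, 2343 and 2146 at 10, a difference of -0.82 ± 0.16 log2 units (SE, n = 3 profiles each; limma adjusted p = 0.0261). Kcnn2 read 1073, 1615 and 1241 at circadian time 18 and 2296, 2451 and 2155 at 10, a difference of -0.81 ± 0.15 log2 units (SE, n = 3 profiles each; limma adjusted p = 0.0214). For both genes the values of the 2 times did not overlap.

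Kcnh2 differed by -0.68 ± 0.19 log2 units and Kcnf1 by 0.55 ± 0.14 (SE, n = 3 profiles each), without passing (limma adjusted p = 0.0724 and 0.0629). Without adjustment 9 of the 55 and 3077 of all genes had p under 0.05. These calls depended on single profiles. Without 78 h replicate 2 there were 4 calls by limma, Kcnk1 (-0.63 log2 units, adjusted p = 0.0107), Kcnn2 (-0.78, adjusted p = 0.0256), Kcnh2 (-0.45, adjusted p = 0.0364) and Kcnf1 (0.69, adjusted p = 0.0134). Over all genes that fit made 842 calls, against 833 with all profiles. Without any 1 of the 3 profiles of circadian time 10 there were 0, with adjusted p from 0.0978 to 0.129 for Kcnk1 and from 0.089 to 0.1105 for Kcnn2 by limma. The differences stayed at -0.80 to -0.86 log2 units for Kcnk1 and -0.76 to -0.85 for Kcnn2 in these fits, while the calls over all genes, 833 with all profiles, fell to 53, 166 and 99. Kcnn2 alone was called when the near-copies 54 h replicate 1 and 78 h replicate 1 were left out (485 calls over all genes), and Kcnk1, Kcnn2 and Kcnh2 were called without 54 h replicate 2 (1288 over all genes).

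Between these times the summed chromaffin markers ranged over 50802 to 63233 at circadian time 18 and over 51993 to 55817 at 10. Of the 12 tested, 3 were higher at 18 (Th, Pnmt and Npy), against 3.57% of all genes, and 1 was lower (Phox2a), against 2.43%. The liver markers summed to 1985 to 12860 at 18 and 1657 to 2053 at 10, and the skeletal muscle markers to 1250 to 18818 and 845 to 9105, with none of the 3 tested in either list called. The part of these cells in the differences of Kcnk1 and Kcnn2 was not tested.

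Patterns that are not a daily cosine were sought by a test of any difference among the 6 circadian times, which 23 of 55 members passed against 54.0% of all genes. Of these 23, 17 also differed between the array sets beside the rhythm, and 9 also differed among the 4 circadian times of the first set, where 9 of 55 passed against 10.4% of all genes. The share of all genes with either overlap was not computed, so the overlaps are no trait of these members. The 9 were the 6 members rhythmic in all fits together with Kcnk3, Kcnmb4 and Kcnd3. Kcnd3, which encodes the A-type channel Kv4.3, had an adjusted p of 0.0409 there by limma and none of its 24 h fits passed. Between the array sets, 20 of 55 members differed, 7 higher and 13 lower in the second, against 46.5% of all genes.

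**Figure D4:**
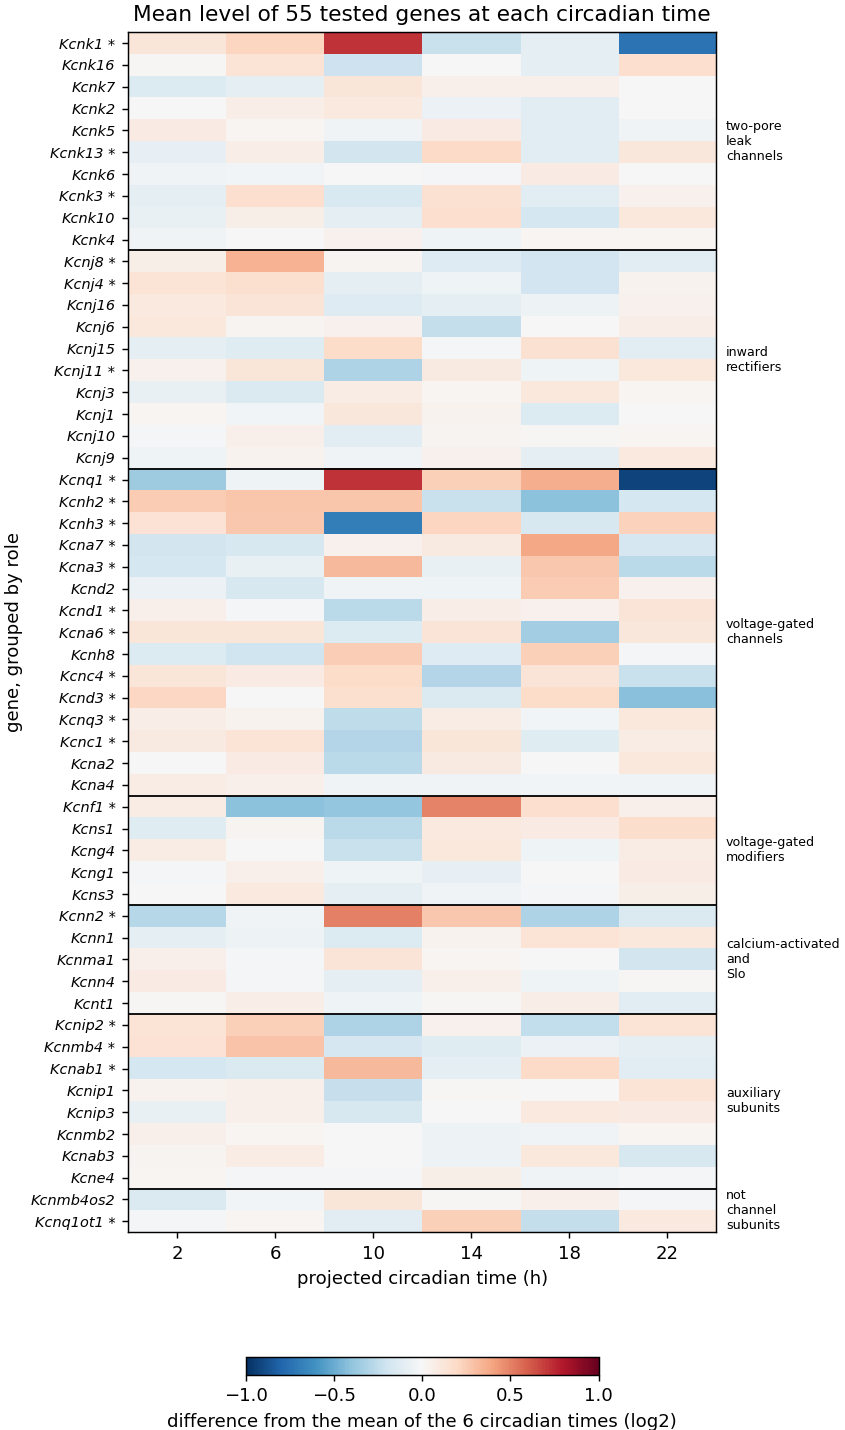
Mean log2 level of the 55 tested genes at each projected circadian time (3 profiles each), as the difference from the mean of the 6 times, with red above and blue below, and genes grouped by role. Asterisks mark the 23 genes that differed among the 6 times, and the strongest colours are Kcnq1 and Kcnk1 at 10 (both 0.72) and at 22 (-0.93 and -0.74), and Kcnh3 at 10 (-0.69).

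No difference of the rhythm between the cycles was detected for any tested member. In 13 profiles of 1 cycle only, 6 of the second and 7 of the first, the interaction of cycle with the 24 h terms passed for 0 of 55 members and 0.00% of all genes by limma, and 1 of the 55 and 324 of all genes had an unadjusted p under 0.05. Those profiles are few, so a difference between cycles may have gone undetected.

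Partners of potassium channels that help to set the membrane potential were looked at beside them, in a list of 28 genes of which 18 were tested. Of these, 4 passed the 24 h test, against 12.8% of all genes, with a median amplitude of 0.11 log2 units for the 18, against 0.11 for all genes. Cacna1h, the T-type calcium channel Cav3.2 of glomerulosa cells, had an amplitude of 0.47 ± 0.07 log2 units and a peak at 23.5 (SE, n = 18 profiles; limma adjusted p = 0.00169). Clcn2, a chloride channel whose human counterpart is mutated in familial hyperaldosteronism, had 0.54 ± 0.11 log2 units and a peak at 7.0 (adjusted p = 0.0105). The sodium pump subunits Atp1b2 and Atp1b3 had 0.31 and 0.16 log2 units, with peaks at 2.8 and 1.3 (adjusted p = 0.00119 and 0.0391). Cacna1h, Clcn2 and Atp1b2 also passed with the array set as a block and in the first set alone, while Atp1b3 did not (0.08 log2 units and adjusted p = 0.103 with the block, adjusted p = 0.0868 in the first set). With the block 5 of the 18 passed, against 17.8% of all genes, the further ones being Abcc9 and the L-type calcium channel Cacna1c (0.24 log2 units, adjusted p = 0.0212). Abcc8, the sulfonylurea receptor that pairs with Kcnj11, did not pass (0.07 log2 units, adjusted p = 0.484). Abcc9, its vascular relative that pairs with Kcnj8, passed with the array set as a block (0.21 log2 units, adjusted p = 0.0283) but neither without (0.16, adjusted p = 0.155) nor in the first set alone (adjusted p = 0.125).

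Some markers of the cell types in the gland also passed the 24 h test. Over all genes 12.8% passed without a term for the array set, and 17.8% with it as a block. Without a term for the array set, 3 of 12 tested chromaffin markers passed, Pnmt (0.66 log2 units, peak 17.6, limma adjusted p = 0.013), Slc18a2 (0.37, peak 8.7, adjusted p = 0.0119) and Phox2a (0.30, peak 8.5, adjusted p = 0.0229). Among 5 smooth muscle and pericyte markers, Pdgfrb (0.21 log2 units, peak 5.2, adjusted p = 0.0408) and Tagln (0.24, peak 22.7, adjusted p = 0.0296) passed, and the summed signal of that list lay between 8518 and 9054 at circadian time 6, where Kcnj8 was highest, and between 7908 and 10866 over the other times. Zona glomerulosa markers gave 2 of 7, Dab2 (peak 14.4, adjusted p = 0.0156) and Vsnl1 (peak 16.0, adjusted p = 0.0225). Steroid cell markers gave 2 of 8, the corticotropin receptor Mc2r (peak 0.4, adjusted p = 0.00121) and its partner Mrap (peak 22.1, adjusted p = 0.00204). Emcn, of 5 endothelial genes, peaked at 21.1 (adjusted p = 0.0334), and Lep, of 4 fat genes, at 19.2 (adjusted p = 0.00905). No marker of Schwann cells (4 tested), skeletal muscle (3), liver (3) or blood cells (4) passed without the term. All of the markers named so far also passed with the array set as a block, but Slc18a2, Phox2a, Tagln, Pdgfrb and Emcn did not in the first set alone (adjusted p = 0.0562, 0.134, 0.119, 0.196 and 0.213). The block added the chromaffin genes Ddc (0.29 log2 units, adjusted p = 0.00379) and Slc6a2 (1.32, adjusted p = 0.000625), which made 5 of 12. It also added Shh (0.48, adjusted p = 0.0179) in the zona glomerulosa list, Nr5a1 (0.29, adjusted p = 0.0334) among the steroid cell markers and the Schwann cell gene Mbp (0.29, adjusted p = 0.00375). Of these 5, Ddc, Slc6a2 and Mbp passed in the first set alone as well. The core clock genes, a check of phase, passed in 5 of 5 cases, among them Arntl with a peak at 22.5 and Dbp with a peak at 9.6. The part of shifts in cell content in the rhythms of the channel genes was not tested.

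The 29 genes too dim to judge comprised 7 voltage-gated channels, 7 auxiliary subunits, 5 inward rectifiers, 4 modifiers, 3 calcium-activated or Slo channels, 2 two-pore channels and 1 RNA that is not a subunit. No profile of 20 of them reached the filter, while 9 had at least 1 profile over it. Among them were the Kcnq1 partners Kcne1, Kcne2 and Kcne3, with mean signals of 94.8, 58.5 and 33.5, and the BK subunit Kcnmb1 at 144. The filter itself separated like values: Kcng1 (191), Kcna4 (198) and Kcnk10 (212) lay just above it, and Kcnh1 (178), Kcns2 (176) and Kcna5 (176) just below. Of the 55 tested genes 11 were under it in at least 1 profile. A dim probe set does not show that a gene was silent, since signals of different probe sets cannot be set against each other.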

How the data were processed

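Each value is a probe set intensity on a linear scale, as deposited by the authors for Affymetrix mouse arrays of total RNA labelled with biotin. The summarisation, scaling and genome build are not given in the sources used here. Signals were taken to log2(intensity + 51), with an offset of 51, their 10th percentile rounded, which understates changes of dim genes. Median log2 signals per array ran from 8.14 to 8.32, so arrays were not normalized again. Arrays give no read depth, and their number (24) limits the precision.

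Circadian time was the hours in the sample title minus 12, modulo 24. Near-copies were pairs with no signal of at least 50 differing by more than 0.1 on the log2 scale. Their SD of log2 ratios was at most 0.0418, against 0.217 to 0.516 in other pairs of the same circadian time, and each pair was averaged. Of the 6 pairs, 5 joined both cycles. Array sets were split at a ThrX-3 signal of 300.

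Genes were matched to the platform annotation by symbol, and all 84 had a gene identifier listed by RefSeq. Genes whose brightest probe set had a mean signal over 184 entered the fit, made in R 4.3.3 by limma 3.58.1 (with data.table, version 1.17.8): the moderated F test, its variance trend included, of the sine and cosine terms for a period of 24 h. Differences between circadian times, between cycles and between array sets were tested in the same way, with Benjamini-Hochberg adjustment over 13879 genes and a threshold of 0.05. The fits were also run on simulated data with independent normal noise. These data had no difference between array sets, so they do not bear on the effect of the sets. Named genes were the leak channels, members past a threshold, the 3 brightest of each role and list genes past the 24 h threshold. Genes named beyond this rule (other two-pore genes, Kcnd3, Kcnq3, list genes past the threshold with the block alone, Abcc8, Arntl, Dbp and dim genes) were chosen after their values were seen. Members, roles and gene lists were chosen with earlier results of these data known.

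Alternatives covered the offset, the filter, quantile normalization, the choice of probe sets, near-copies counted singly and profiles left out. Fits without a profile that kept the array set as a block, and alternatives for the tests of any difference and of cycles, were chosen after seeing the data.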

Additional observations from a re-analysis of the deposited data

How the results depend on the processing

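The count of 7 rhythmic potassium channel genes held at 6 to 8 under other offsets, filters, normalization, choices of probe sets, array set terms and without the profile of low 5' Gapdh signal or those with Acta1 over 1000. It moved to 12 when all 24 arrays were counted singly, with or without the replicate number as a replicate block. Over all genes these fits called 4193 and 4120. Near-copies then enter as separate arrays and add degrees of freedom, but the cause of the rise was not tested. The labels do not say that a number marks a shared animal or batch, and 3 of the 6 near-copy pairs join different numbers, so no pairing was used. Leaving out 1 profile gave 4 to 8 calls, the fewest without 46 h replicate 2, and 6 to 8 with the array set as a block. Over all genes it gave 1178 to 2212 and 1797 to 2593, and leaving out the Acta1 profiles 1016. Kcnh2, Kcnq1 and Kcnn2 kept their call in all 52 alternatives and Kcna7 lost it in 38 of 51. For circadian times 18 and 10 the 2 calls became 0 to 4 without 1 profile, 4 without 78 h replicate 2 and 3 after quantile normalization. Over all genes the 833 calls became 53 to 1288 without 1 profile, so the drop to 0 went with a drop over the whole array. There were 842 calls over all genes without 78 h replicate 2 and 851 after quantile normalization. The 23 members that differed among the 6 times were 9 in the first array set alone, and 19 to 27 without 1 profile. Over all genes the share was 54.0% among the 6 times and 10.4% in the first set alone. In that set fewer samples and times enter, and the difference between array sets is left out. Which of these lowered the counts was not tested. For the cycles the count stayed at 0 in each alternative run. Among the alternatives run, no named call reversed. Signal over background limits what can be said of the 29 dim genes, and 3 profiles per time limit the rest.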
